A study of Mus musculus with 8 samples.

Results

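The genes described here encode matrix metalloproteases (Mmp), the ADAMTS metalloproteases and the tissue inhibitors of metalloproteases (Timp). They were taken as every gene whose symbol in the platform annotation is Mmp, Adamts or Timp followed by a number and at most 1 letter, so that the ADAMTS-like (Adamtsl) genes stayed out. This gave 37 of the 18194 genes measured: 18 Mmp, 15 Adamts and 4 Timp genes. Each was read from its brightest probe set, the one with the highest mean over all arrays among those annotated with 1 symbol. Genes of these families that the annotation used here lacks, such as Adamts2, Adamts14, Mmp15 and Mmp28, were not analysed. RNA of the mandibular arch, the embryonic forerunner of the lower jaw, was hybridised to 8 Affymetrix arrays, all from C57BL/6J mice at embryonic day 11.5 (sex not determined). The controls were 4 arches labelled Alk5 fl/fl and the mutants were 4 arches labelled Wnt1-Cre;Alk5 fl/fl. Both groups carry the floxed Alk5 alleles, and the Cre transgene is named for the mutants alone, so that the effect of the Cre cannot be told apart from that of losing Alk5. Wnt1-Cre acts in the cranial neural crest lineage, and cells of other lineages in the arch keep a working Alk5, the type I TGF-beta receptor also called Tgfbr1.

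MMPs are zinc endopeptidases made with a propeptide that keeps them inactive. They cut collagens, laminins and other matrix proteins at or near the cell surface. ADAMTS enzymes are related secreted zinc proteases with thrombospondin repeats, and they act on the large proteoglycans, on procollagens and on fibrillin-rich matrix. TIMPs bind the active site of MMPs and of some ADAMTS enzymes. Neural crest mesenchyme of the arches makes a matrix rich in versican and fibrillar collagens, which these enzymes remodel.

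The arrays carried the markers of arch mesenchyme: all 14 on that list read above the lower quartile of all genes, among them Prrx1, Hand2 and Msx1. By limma 1 of the 14 rose (Dlx2) and 0 fell, against 0.835% and 1.31% of all genes. A log2 fold change below 0 was found for 10 and an unadjusted p under 0.05 for 8, against 52% and 13.5% of all genes. Msx1 was at -0.58, Prrx1 at -0.34 and Hand2 at -0.27, each without overlap of the groups (adjusted p = 0.0675, 0.0753 and 0.219). Dlx2 (0.56), Dlx1 (0.38), Msx2 (0.34) and Dlx5 (0.18) were above 0. In this list the groups did not overlap for 4 genes lower and 1 higher in the mutants, against 7.02% and 3.27% of all genes. Tgfbr1 itself read 12.71 to 12.90 in controls and 12.97 to 12.99 in mutants on the log2 scale (limma adjusted p = 0.232), from a probe set that may lie outside the deleted part. Mutant replicate 3 stood apart, since its log2 values had an SD of 2.42 over all probe sets where the SD elsewhere was 2.52 to 2.56. Its poorest correlation with any other array was 0.986, and pairs formed by the remaining 7 arrays correlated at 0.993 or more. Macrophage markers were higher in the mutants, with 10 of 14 past the threshold, where 0.835% of all genes were called higher. Their mean per array was 6.76 to 6.91 in controls and 7.50 to 7.89 in mutants. Among these 14, Itgam alone read below the lower quartile. In bulk tissue, fewer cells of a type and less RNA per cell cannot be told apart. The labels do not state that each array came from a different embryo, and the p-values measure the spread between these 8 samples only, which may be technical.

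Of the 37 genes, 1 changed: Adamts20 fell (limma adjusted p under 0.05 over all 18194 genes). That is 2.70% of the members, against 2.14% of all genes called, and 1.31% called lower. No member rose, where 0.835% of all genes did. The count was 2 without mutant 3 (Adamts20 and Adamts8, both lower), 1 without control 4 or mutant 2, 1 without control 1 (Adamts12, higher, and not Adamts20), and 0 without control 2, control 3, mutant 1 or mutant 4. The share of all genes called moved as well, to 3.40% without mutant 3, 2.80% without control 4, 1.86% without mutant 2, 1.09% without mutant 1 and 0.572% to 0.830% without control 1, 2 or 3 or mutant 4. The median log2 fold change, mutant minus control, was -0.05 over the members and -0.01 over all genes, and 22 members (59.5%) lay below 0, against 52% of all genes. Without adjustment, 12 members (32.4%) had a limma p under 0.05, against 13.5% of all genes. In 9 members (24.3%) the arrays of the groups did not overlap, against 10.3% of all genes. Of these 9, the mutants were lower in 6 (7.02% of all genes) and higher in 3 (3.27%). Of the 12 members that read above the median gene, 10 (83.3%) were below 0, against 66.7% of all genes of that brightness, and the median log2 fold changes were -0.29 and -0.05.

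**Figure D1:**
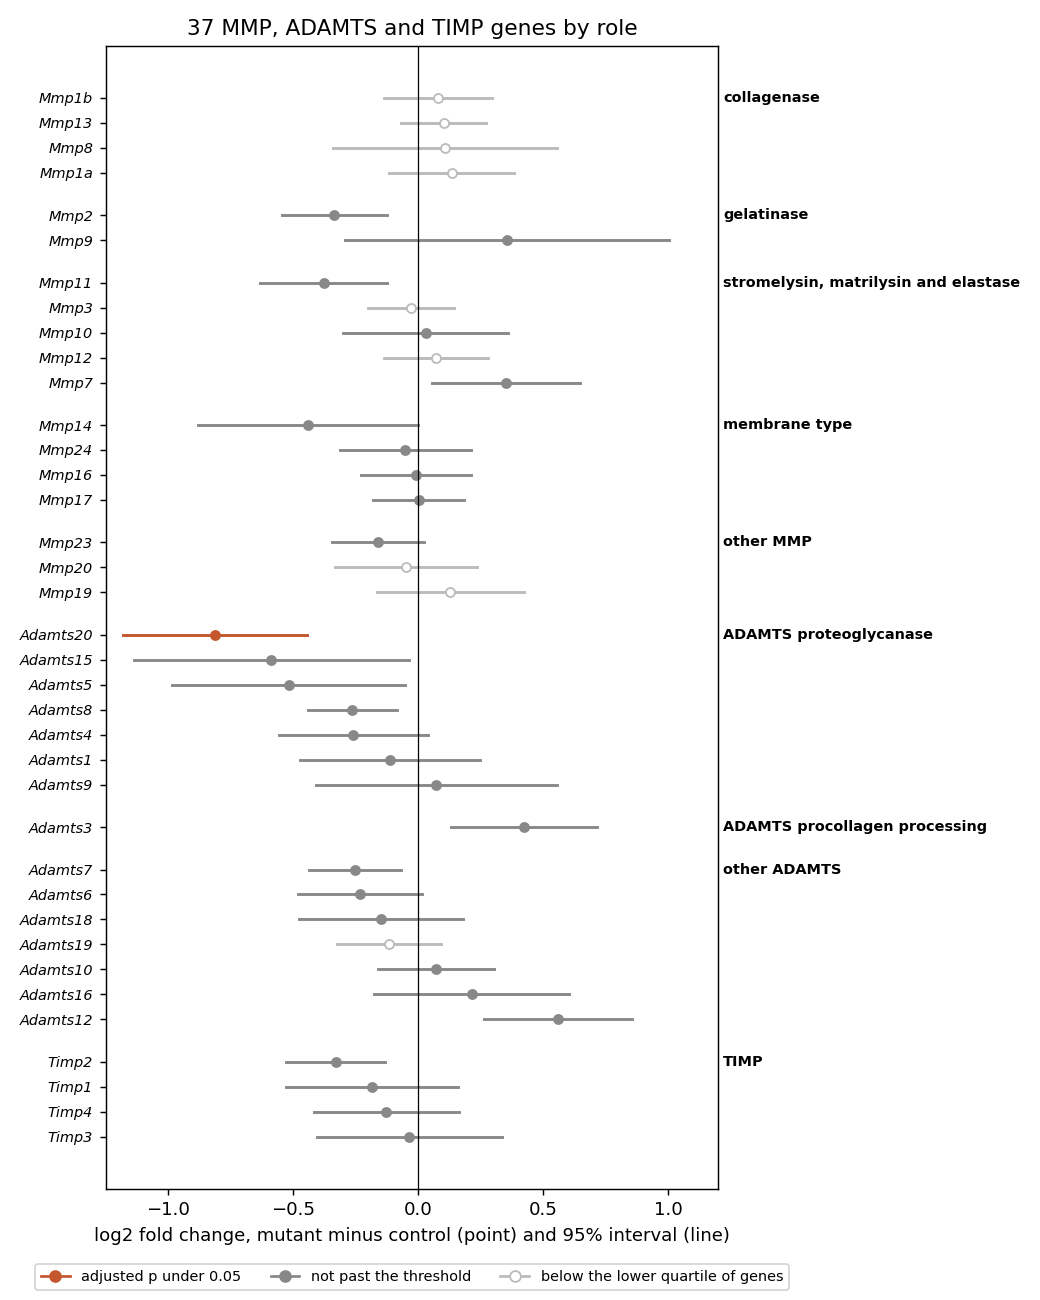
Log2 fold change (mutant minus control, horizontal axis, 95% interval from limma as a line) of each of the 37 genes, grouped by role, from 4 control and 4 mutant arrays. Adamts20, in red, is the single gene past the threshold, and the open points are the 9 genes that read below the lower quartile of all genes.

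Adamts20 is a versican-cleaving protease of mesenchyme, and its loss causes the belted coat of mice, a white band where melanoblasts are missing. Its log2 values were 8.57, 8.68, 8.74 and 8.26 in control replicates 1 to 4 and 7.88, 8.08, 7.32 and 7.71 in mutant replicates 1 to 4. Every mutant array lay below every control array, control 4 being the lowest control and mutant 3 the lowest of all. The means were 8.56 ± 0.213 and 7.75 ± 0.321 (SD, n = 4 each), a 1.76-fold fall. This is a log2 fold change of -0.81 ± 0.163 (SE, 95% interval -1.18 to -0.45, limma adjusted p = 0.0395). A two-sided exact permutation of the group labels gave p = 0.0286, the smallest that 70 relabelings allow. The gene has 1 probe set, so no other part of the transcript was read. Adamts20 kept its call without the array that stood apart, mutant 3 (-0.67, adjusted p = 0.035), and without control 4 (-0.91, adjusted p = 0.0219). It lost the call without control 1 (limma adjusted p = 0.11), control 2 (0.14), control 3 (0.145), mutant 1 (0.0675) or mutant 4 (0.125), while its log2 fold change stayed between -0.92 and -0.67. The list of Schwann cell and neuronal markers (6 of 9 measured) was also lower in the mutants. Past the threshold were 2 of the 6 (Tubb3 and Foxd3), where 1.31% of all genes were called lower. The mean per array of this list was 7.47 to 8.01 in controls and 7.07 to 7.34 in mutants. Platelet and megakaryocyte markers (5 of 6 measured) were lower too: Ppbp and Pf4 of the 5 passed, at -0.97 and -0.77 in log2 fold change. The mean per array of these 5 was 8.63 to 9.08 in controls and 8.20 to 8.52 in mutants. The part of these cells, and of the macrophages, in the fall of Adamts20 was not tested.

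The promoter of Adamts20 is shown because it is the promoter of the single gene that passed. It is the 250 bases before the RefSeq start site in GRCm38.p6, chr15:94404351-94404600 on the minus strand, written 5′ to 3′ in the direction of the gene. The capitals mark the match to the Smad-binding letters CAGAC, here on the other strand as GTCTG, whose first base lies 202 bases before the start site.
Adamts20 promoter: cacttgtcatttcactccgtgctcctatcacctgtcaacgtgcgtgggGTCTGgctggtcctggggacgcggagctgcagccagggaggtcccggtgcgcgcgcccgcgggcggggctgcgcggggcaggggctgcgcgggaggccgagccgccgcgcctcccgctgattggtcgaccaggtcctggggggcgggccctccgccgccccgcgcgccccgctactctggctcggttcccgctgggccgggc
The window was 76.4% G and C. It held 1 match to CAGAC on either strand, as did 42.2% of all 32851 promoters at least once, and 0 matches to the AP-1 letters TGANTCA. A match of this length is a description of the letters and not a binding site.

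Adamts20 belongs to the ADAMTS enzymes that cut aggrecan, versican and related proteoglycans. Of the 7 measured (Adamts1, Adamts4, Adamts5, Adamts8, Adamts9, Adamts15 and Adamts20), 1 fell, 0 rose and 6 missed the threshold. Of all genes, 1.31% were called lower and 0.835% higher. The mutant mean was the lower for 6 of the 7, against 52% of all genes. Of the 7, 5 read above the median gene, and 66.7% of all genes of that brightness lay below 0. The median log2 fold change of the group was -0.26. Adamts8 read 6.04, 5.95, 6.01 and 5.88 in controls and 5.64, 5.73, 5.86 and 5.59 in mutants (log2 values, replicates 1 to 4). The groups just failed to meet, with control 4 at 5.88 and mutant 3 at 5.86, and the log2 fold change of Adamts8 was -0.26 ± 0.0799 (SE, limma adjusted p = 0.16). Adamts8 passed without mutant 3 (-0.32, limma adjusted p = 0.0363).

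Adamts5, a main aggrecanase, read 7.18, 7.50, 7.20 and 6.51 in controls and 6.75, 6.82, 6.55 and 6.20 in mutants. Control 4 lay among the mutants and the other 3 controls above all of them, and mutant 4 was the lowest mutant. In log2 units the fold change of Adamts5 was -0.52 ± 0.208 (SE, 95% interval -0.99 to -0.05, limma adjusted p = 0.308), and without control 4 it was -0.72 (adjusted p = 0.0533). With the replicate number as a block, the SE of Adamts5 was 0.0957 (limma adjusted p = 0.0538). The other 3 probe sets of Adamts5 were below 0 as well, at -0.48, -0.25 and -0.09. The one at -0.09 was dim, with a mean log2 value of 3.33.

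Adamts15, an aggrecanase of developing skeletal and muscle tissue, had the same layout. It read 9.14, 8.96, 8.95 and 8.27 in controls and 8.45, 8.72, 8.16 and 7.64 in mutants, with control 4 again among the mutants. Its log2 fold change was -0.59 ± 0.245 (SE, 95% interval -1.14 to -0.04, limma adjusted p = 0.333). Without control 4 it was -0.77 (adjusted p = 0.138). Mutant 4 was again the lowest mutant, and with the replicate number as a block the SE was 0.109 (limma adjusted p = 0.0552). Adamts8 and Adamts15 are direct neighbours in the order of protein-coding genes, as are Adamts1 and Adamts5.

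The remaining proteoglycanases did not pass. Adamts4 had a log2 fold change of -0.26 ± 0.133 (SE, limma adjusted p = 0.451), and a dimmer probe set was at -0.40. Adamts1 (-0.11, 95% interval -0.48 to 0.25) and Adamts9 (0.07, 95% interval -0.41 to 0.55) were among the brighter members, with log2 values of 8.44 to 9.22 and 8.52 to 9.51 over all arrays. Adamts9 acts with Adamts20 on versican in palate and skin. Versican itself (Vcan), chosen after its values were seen, read 11.73 ± 0.0827 in controls and 11.66 ± 0.312 in mutants (log2, SD, n = 4 each). That difference of -0.08 had a 95% interval from -0.39 to 0.24 (limma adjusted p = 0.861).

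**Figure D2:**
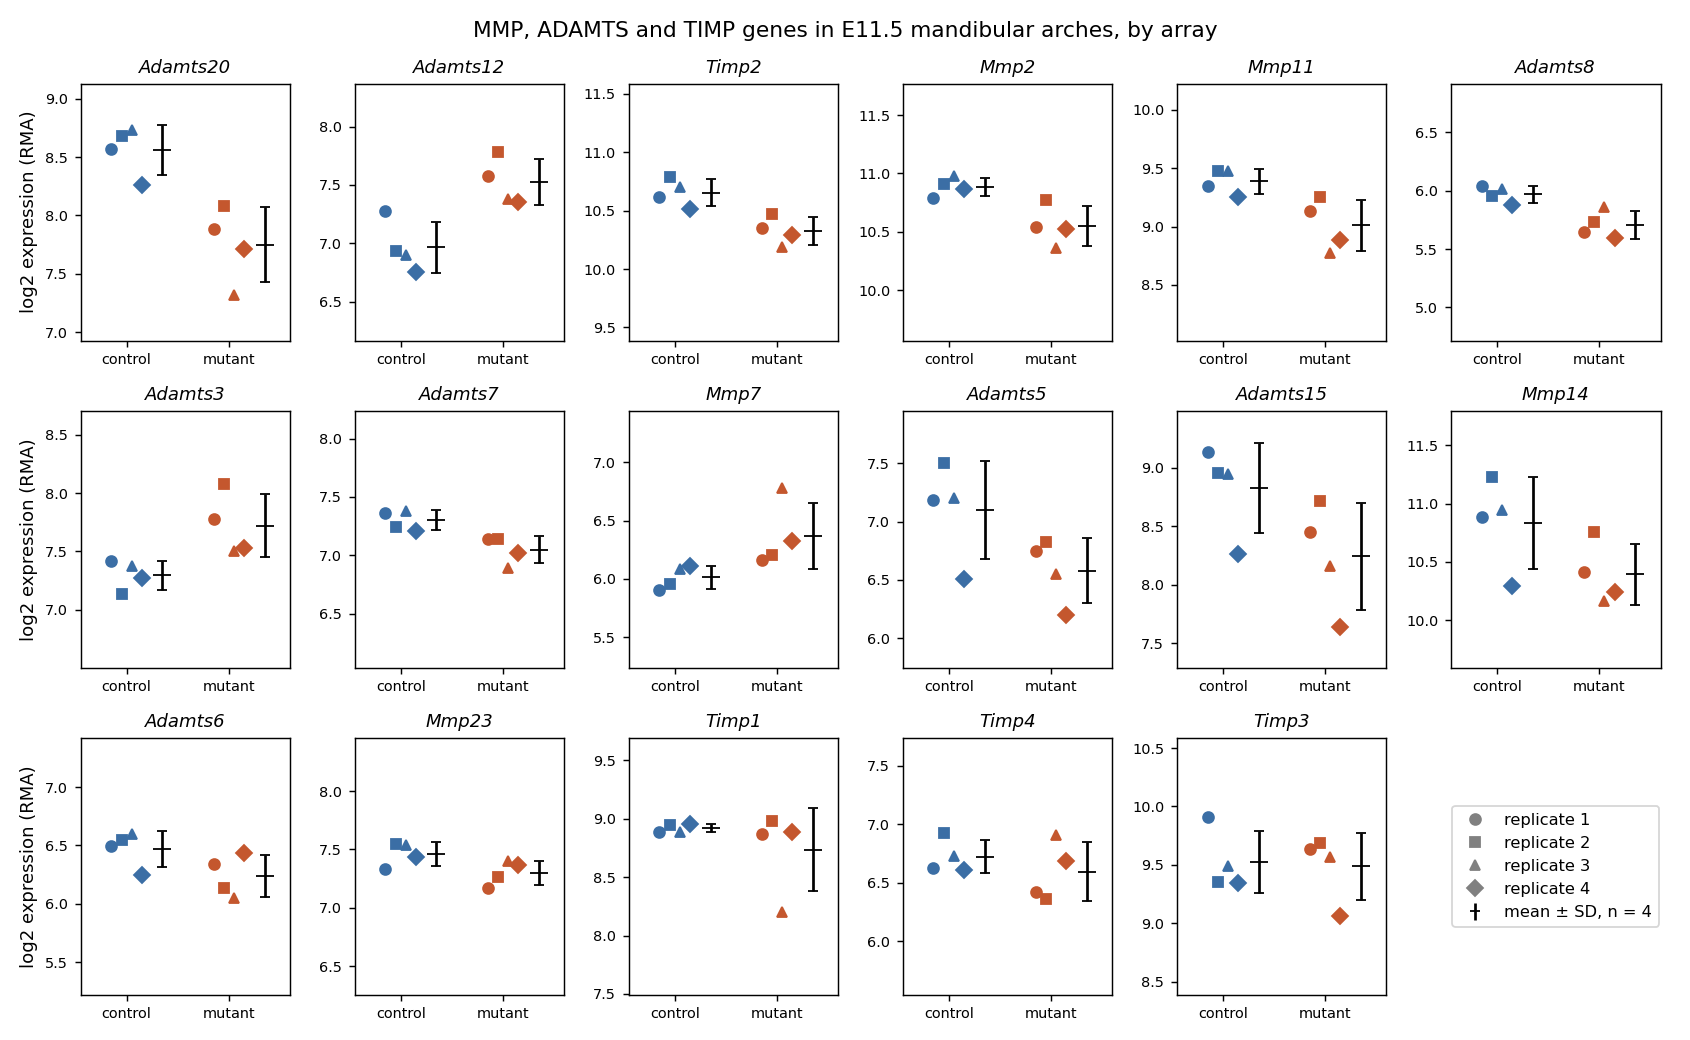
Log2 expression (vertical axis, each panel spanning an equal range) of Adamts20, the Timp genes and the 12 further genes with the smallest p, by array. Symbols stand for replicates 1 to 4 and the bar is the mean ± SD of 4 arrays. Control 4 (blue diamond) lies among the mutants, and the other controls above all of them, for Adamts5, Adamts6, Adamts15 and Mmp14. Mutant 3 (red triangle) lies far below the rest for Timp1.

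Adamts3, which removes the amino propeptide of procollagens and activates Vegfc through Ccbe1, read higher in the mutants. Its log2 values were 7.41, 7.13, 7.37 and 7.27 in controls and 7.78, 8.07, 7.50 and 7.53 in mutants, with no overlap. Adamts3 had a log2 fold change of 0.42 ± 0.13 (SE, 95% interval 0.13 to 0.72), which missed the threshold (limma adjusted p = 0.167). A second, dim probe set of Adamts3, with a mean log2 value of 4.22, was at 0.10.

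Adamts12, a protease of cartilage oligomeric matrix protein, had the largest log2 fold change above 0 of the 37. It read 7.28, 6.93, 6.90 and 6.75 in controls and 7.57, 7.78, 7.38 and 7.35 in mutants, so that control 1 came closest to the mutants. The difference was 0.56 ± 0.132 (log2 fold change ± SE, 95% interval 0.26 to 0.85, limma adjusted p = 0.0692) and did not pass. Adamts12 passed without control 1 (0.66, limma adjusted p = 0.0498). Its other probe set, with a mean log2 value of 3.43, was at 0.05.

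Adamts7, which shares this substrate, lay on the other side. It read 7.37, 7.24, 7.38 and 7.21 in controls and 7.14, 7.14, 6.89 and 7.02 in mutants, again with no overlap, and its log2 fold change was -0.25 ± 0.082 (SE, limma adjusted p = 0.193). Adamts6, a protease of fibrillin-rich matrix, read 6.50, 6.55, 6.59 and 6.25 against 6.34, 6.14, 6.05 and 6.43. Control 4 lay among the mutants and the other controls above all of them. The log2 fold change of Adamts6 was -0.23 ± 0.11 (SE, limma adjusted p = 0.408), or -0.31 without control 4 (adjusted p = 0.24). Adamts10, Adamts16, Adamts18 and Adamts19 had log2 fold changes of -0.15 to 0.21, and none of them passed (smallest adjusted p 0.657).

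Among the MMPs, 0 of 18 passed in either direction by limma, where 2.14% of all genes did. An unadjusted limma p under 0.05 was found for 4 (22.2%), against 13.5% of all genes. The median log2 fold change of the MMPs was 0.01. The gelatinases Mmp2 and Mmp9 cut denatured collagen and basement membrane. Mmp2 read 10.79, 10.91, 10.98 and 10.87 in controls and 10.54, 10.77, 10.36 and 10.52 in mutants. All 4 mutants lay below all 4 controls, mutant 2 by a narrow margin. For Mmp2 the log2 fold change was -0.34 ± 0.0935 (SE, 95% interval -0.55 to -0.13, limma adjusted p = 0.121), and its second bright probe set was at -0.35. Mmp9, which osteoclasts and myeloid cells make, varied widely in both groups, from 5.71 to 6.90 in controls and from 6.09 to 7.12 in mutants (log2 values), and its log2 fold change of 0.35 had a 95% interval from -0.29 to 1.00. Its second probe set was at 0.00. Osteoclast markers averaged 6.11 to 6.22 per control array and 5.96 to 6.18 per mutant array (0 of 6 past the threshold), and neutrophil markers 5.78 to 6.81 and 6.58 to 6.98 (0 of 7). No neutrophil marker had a log2 fold change below 0, and their median was 0.51. By limma 4 of the 7 had an unadjusted p under 0.05, against 13.5% of all genes. The part of these cells in the values of Mmp9 was not tested.

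Mmp14, the membrane-type protease that activates Mmp2 in a complex with Timp2, read 10.88, 11.22, 10.94 and 10.29 in controls and 10.41, 10.76, 10.16 and 10.24 in mutants. Control 4 lay among the mutants. Its log2 fold change was -0.44 ± 0.196 (SE, limma adjusted p = 0.367), or -0.62 without control 4 (adjusted p = 0.0771). The other probe sets of Mmp14 were at -0.50 and -0.14. The other membrane-type enzymes measured here, Mmp16, Mmp17 and Mmp24, had log2 fold changes of -0.05 to 0.00, each with a 95% interval inside -0.32 to 0.21. The other probe sets of Mmp16 were at 0.05, 0.45 and 0.01, and the one at 0.45 spread from 5.89 to 6.67 in controls and from 5.93 to 7.57 in mutants (adjusted p = 0.706 over all probe sets).

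Mmp11, or stromelysin 3, is a protease of mesenchyme next to epithelia. It read 9.34, 9.48, 9.48 and 9.25 in controls and 9.14, 9.25, 8.77 and 8.88 in mutants, where control 4 and mutant 2 nearly met at 9.25. Mmp11 had a log2 fold change of -0.38 ± 0.114 (SE, 95% interval -0.63 to -0.12, limma adjusted p = 0.154). Mmp23 read 7.33, 7.54, 7.54 and 7.43 against 7.17, 7.26, 7.40 and 7.37, with overlapping groups and a log2 fold change of -0.16 ± 0.0822 (SE, limma adjusted p = 0.445).

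Matrilysin (Mmp7), an epithelial protease that lacks the hemopexin domain, read 5.90, 5.96, 6.08 and 6.11 in controls and 6.16, 6.21, 6.77 and 6.32 in mutants. The groups did not overlap, and mutant 3 was the highest array. Its log2 fold change was 0.35 ± 0.132 (SE, limma adjusted p = 0.27), and it was 0.22 without mutant 3 (adjusted p = 0.161).

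Mmp7 lies in a run of 9 measured Mmp genes that follow each other on the chromosome with at most 1 other protein-coding gene between them: Mmp13, Mmp12, Mmp1b, Mmp3, Mmp1a, Mmp10, Mmp8, Mmp20 and Mmp7. These include the collagenases Mmp1a, Mmp1b, Mmp8 and Mmp13, the stromelysins Mmp3 and Mmp10, macrophage elastase (Mmp12) and the enamel protease Mmp20. Of the 9, 7 read below the lower quartile of all genes, as did 2 of the other 28 members (Mmp19 and Adamts19). At such signals a transcript cannot be told from background without detection calls, which were not used here. The mean log2 value over all arrays was 3.31 for Mmp13, 3.43 for Mmp1a, 3.50 for Mmp12 and 3.60 for Mmp1b. Mmp1a and Mmp1b are close copies whose probes may not separate them. Leaving out Mmp7, the log2 fold changes along the run lay between -0.05 and 0.13 (smallest limma adjusted p 0.643). Mmp12 stayed at 3.31 to 3.68 in every array, although macrophage markers as a list were higher in the mutants.

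The promoters of this run share a feature that the choice of the genes did not use. The plan named promoters of genes past the threshold alone, so this look at the run was not part of it. The 9 genes are neighbours of the same family, so their promoters may not count as independent of each other. AP-1, the Jun and Fos factor, is known to drive several of these genes. The letters TGANTCA, which read alike on both strands, were found in the 250 bases before a start site of 8 of the 9 genes (all but Mmp8), at 35 to 95 bases before the start. By promoter the count was 8 of 11, since Mmp12 and Mmp7 each had a second promoter without a match. Of the 37 members, 23 had a promoter in the set used, and the rest, Mmp2, Mmp9 and Adamts5 among them, were not searched. The letters were found for 0 of the 14 members outside the run that had a promoter (15 promoters), and in 6.75% of all 32851 promoters. Among the 15289 promoters with a G and C content in the range of the run (37.2% to 53.2%) the share was 8.87%, while the other members had 53.6% to 79.2%. The AP-1 and Smad letters can share their CA. The matches are shown with 7 bases on each side, in the direction of the gene, on GRCm38.p6, with the AP-1 letters in capitals.
Mmp13, chr9:7272472-7272492, plus strand: aaagtggTGACTCAtcactat
Mmp12, chr9:7347323-7347343, plus strand: tcaacagTGAGTCAgatagag
Mmp1b, chr9:7388106-7388126, minus strand: caaagccTGAGTCAtatagcc
Mmp3, chr9:7445769-7445789, plus strand: gcaattaTGAGTCAgttttcg
Mmp1a, chr9:7464061-7464081, plus strand: tcaaccaTGAGTCAcatagcc
Mmp10, chr9:7502272-7502292, plus strand: acccatgTGAGTCAtgcttag
Mmp20, chr9:7628129-7628149, plus strand: tgagacaTGAATCAtcactta
Mmp7, chr9:7692020-7692040, plus strand: gtgcaaaTGAGTCAcctattt
Of these 8 genes, 6 read below the lower quartile and none passed in the comparison. These windows were picked because they matched, and a match says nothing of whether the factor was bound in the arch.

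All 4 inhibitors had a lower mean in the mutants on their brightest probe sets, against 52% of all genes. Of the 4, 3 read above the median gene, and 66.7% of all genes of that brightness lay below 0. None of the 4 passed by limma, where 2.14% of all genes did. An unadjusted limma p under 0.05 was found for 1, Timp2, against 13.5% of all genes. Timp2, the inhibitor that also bridges Mmp2 to Mmp14, read 10.62, 10.79, 10.70 and 10.51 in controls and 10.35, 10.47, 10.19 and 10.29 in mutants. The groups did not overlap, with control 4 the lowest control. For Timp2 the log2 fold change was -0.33 ± 0.0881 (SE, 95% interval -0.53 to -0.13, limma adjusted p = 0.107). Of its 6 probe sets, the other 2 of high signal were at -0.23 and -0.40, and the 3 dimmer ones were at 0.06, 0.07 and -0.07. Over the mean of its probe sets Timp2 was at -0.15 (limma adjusted p = 0.362). Mmp2, Mmp14 and Timp2, which act together at the cell surface, had log2 fold changes of -0.34, -0.44 and -0.33 on their brightest probe sets. Each missed the threshold. The trio was not a group of the plan, and its genes all read above the median gene, where 66.7% of all genes lay below 0. The arch mesenchyme markers had a median log2 fold change of -0.12 and a mean per array of 10.41 to 10.57 in controls and 10.32 to 10.53 in mutants, and the part of these cells in the values of the trio was not tested.

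Timp1, the inducible soluble inhibitor, read 8.89, 8.94, 8.89 and 8.96 in controls and 8.87, 8.98, 8.20 and 8.88 in mutants. All arrays but mutant 3 lay between 8.87 and 8.98. The log2 fold change was -0.19 with all arrays and -0.01 without it (limma adjusted p = 0.673 and 0.957). Timp3, which binds to the matrix and also inhibits ADAMTS enzymes, read 9.91, 9.35, 9.49 and 9.34 in controls and 9.63, 9.68, 9.57 and 9.06 in mutants. Its groups overlapped throughout, and the difference was -0.04 (95% interval -0.41 to 0.33, limma adjusted p = 0.948). The sign turned with quantile normalization (0.04). The other probe sets of Timp3 were at -0.16, -0.16 and 0.15. Timp4 read 6.63, 6.92, 6.73 and 6.61 against 6.42, 6.36, 6.91 and 6.69, a log2 fold change of -0.13 (95% interval -0.42 to 0.16, limma adjusted p = 0.732). The other probe set of Timp4, with a mean log2 value of 3.86, was at 0.05.

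**Figure D3:**
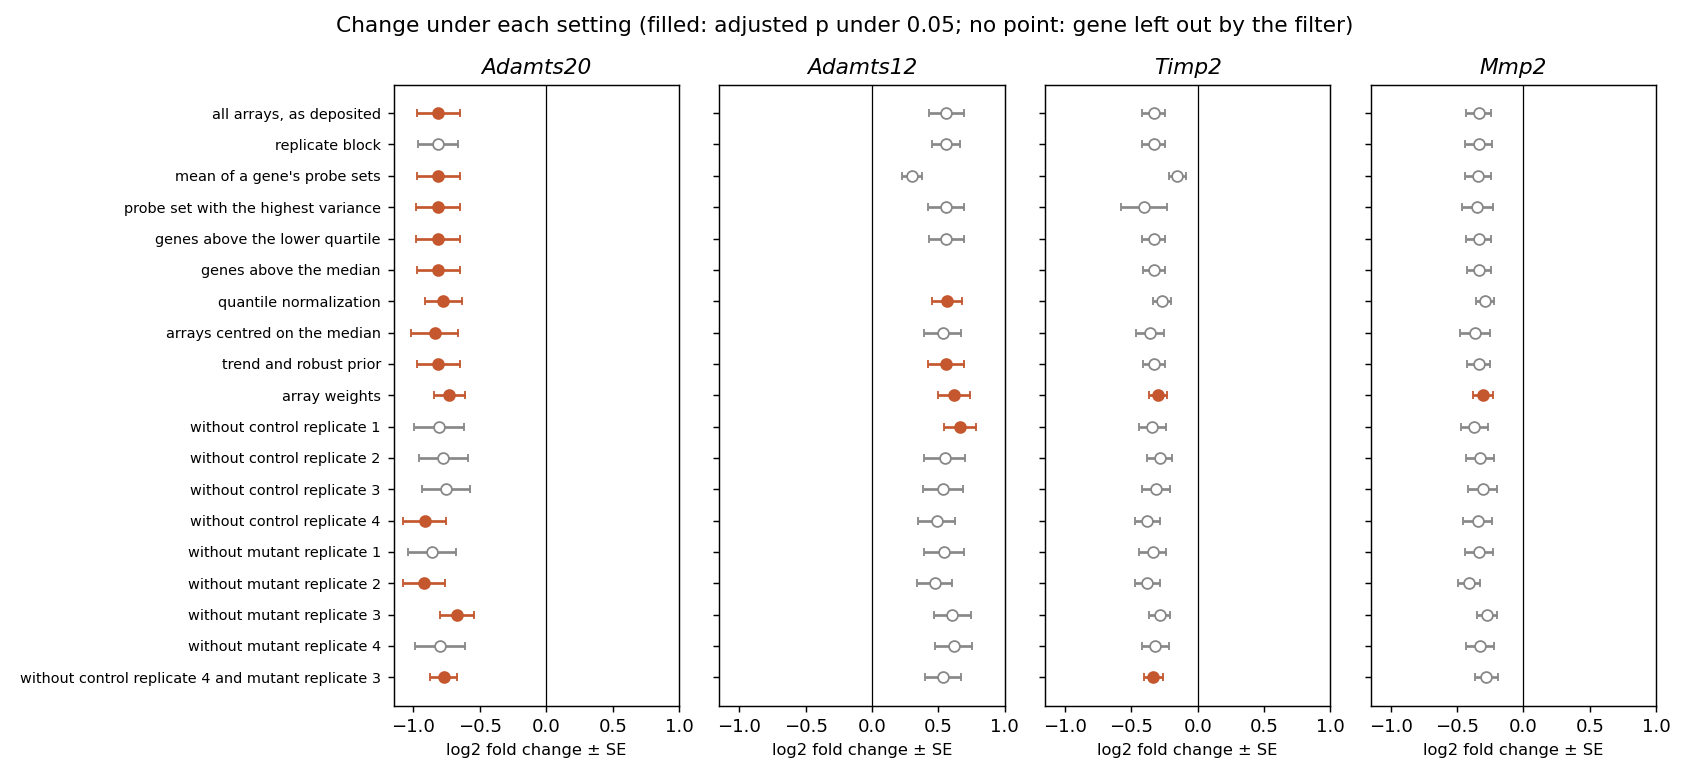
Log2 fold change ± SE (horizontal axis) of Adamts20, Adamts12, Timp2 and Mmp2 under each setting (rows), with filled points where the adjusted p was under 0.05. Adamts20 stays between -0.92 and -0.67, and its points are open under 6 of the 18 alternatives. Not drawn are the fit of every probe set on its own (Adamts20 limma adjusted p = 0.0513) and the other thresholds.

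Neighbouring parts of the protease system were read from the same fit. Of 33 measured genes of the plasminogen system and other matrix proteases with their inhibitors, 3 rose, 1 fell and 29 missed the threshold, against 0.835% and 1.31% of all genes, and the median log2 fold change was 0.04. The lysosomal cysteine protease cathepsin S (Ctss), which macrophages and microglia make, read 9.21, 9.19, 9.08 and 8.92 in controls and 10.63, 10.70, 10.05 and 9.95 in mutants. It rose 2.35-fold (log2 fold change 1.23 ± 0.172, SE, limma adjusted p = 0.00899). Cathepsin B (Ctsb) rose by 0.38 ± 0.0795 (adjusted p = 0.0449), and the broad protease inhibitor alpha-2-macroglobulin (A2m) by 0.63 ± 0.104 (adjusted p = 0.0189). Macrophage markers were higher by a median log2 fold change of 1.03 in the same arrays, and their part in these rises was not tested.

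The proprotein convertase Pcsk5, which cuts precursors of TGF-beta family and other proteins, fell by 0.91 ± 0.173 on the log2 scale (SE, limma adjusted p = 0.0307). It read 10.20, 10.64, 10.41 and 9.78 in controls and 9.42, 9.54, 9.10 and 9.31 in mutants, with no overlap. Ctss passed without each single array, while A2m lost its call without control 3 or mutant 1, Pcsk5 without control 1, 2 or 3 or mutant 1 or 4, and Ctsb without any single array but mutant 3 (adjusted p up to 0.159). Without 1 array the count of 4 was 2 without control 1, control 2 or mutant 4 and 1 without control 3 or mutant 1. With the probe sets of each gene averaged, A2m and Ctss passed, and Pcsk5 and Ctsb did not.

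Of 36 measured substrates in the matrix, 4 fell, 1 rose and 31 missed the threshold, where 1.31% of all genes fell and 0.835% rose. The median of the list was -0.15 on the log2 scale. The proteoglycan gene Bgn (-0.83 ± 0.105, limma adjusted p = 0.00574) kept its call without each single array. Lum (-1.61 ± 0.331), Col1a1 (-1.08 ± 0.216) and Col1a2 (-0.91 ± 0.157), a small proteoglycan and the chains of type I collagen, were the other falls (log2 fold change ± SE). Control 4 was the lowest control for each of the 4. The basement membrane chain gene Lama1 rose by 0.69 ± 0.139 (limma adjusted p = 0.0399). The count of 5 was 1 without control 1, control 2, control 3, mutant 1 or mutant 4, 3 without mutant 3 and 9 without control 4.

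Of 19 ADAM and ADAMTS-like genes, 1 fell, 0 rose and 18 missed the threshold, against the same shares of all genes. Their median log2 fold change was -0.01. The fall was Adam23, an ADAM protein without protease activity that binds integrins and Lgi1. It read 7.28, 7.31, 7.53 and 7.34 in controls and 6.79, 6.97, 6.66 and 6.47 in mutants, a log2 fold change of -0.64 ± 0.112 (SE, limma adjusted p = 0.0222). The call was lost without control 1, 2 or 3 or mutant 4 (adjusted p up to 0.0906).

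**Figure D4:**
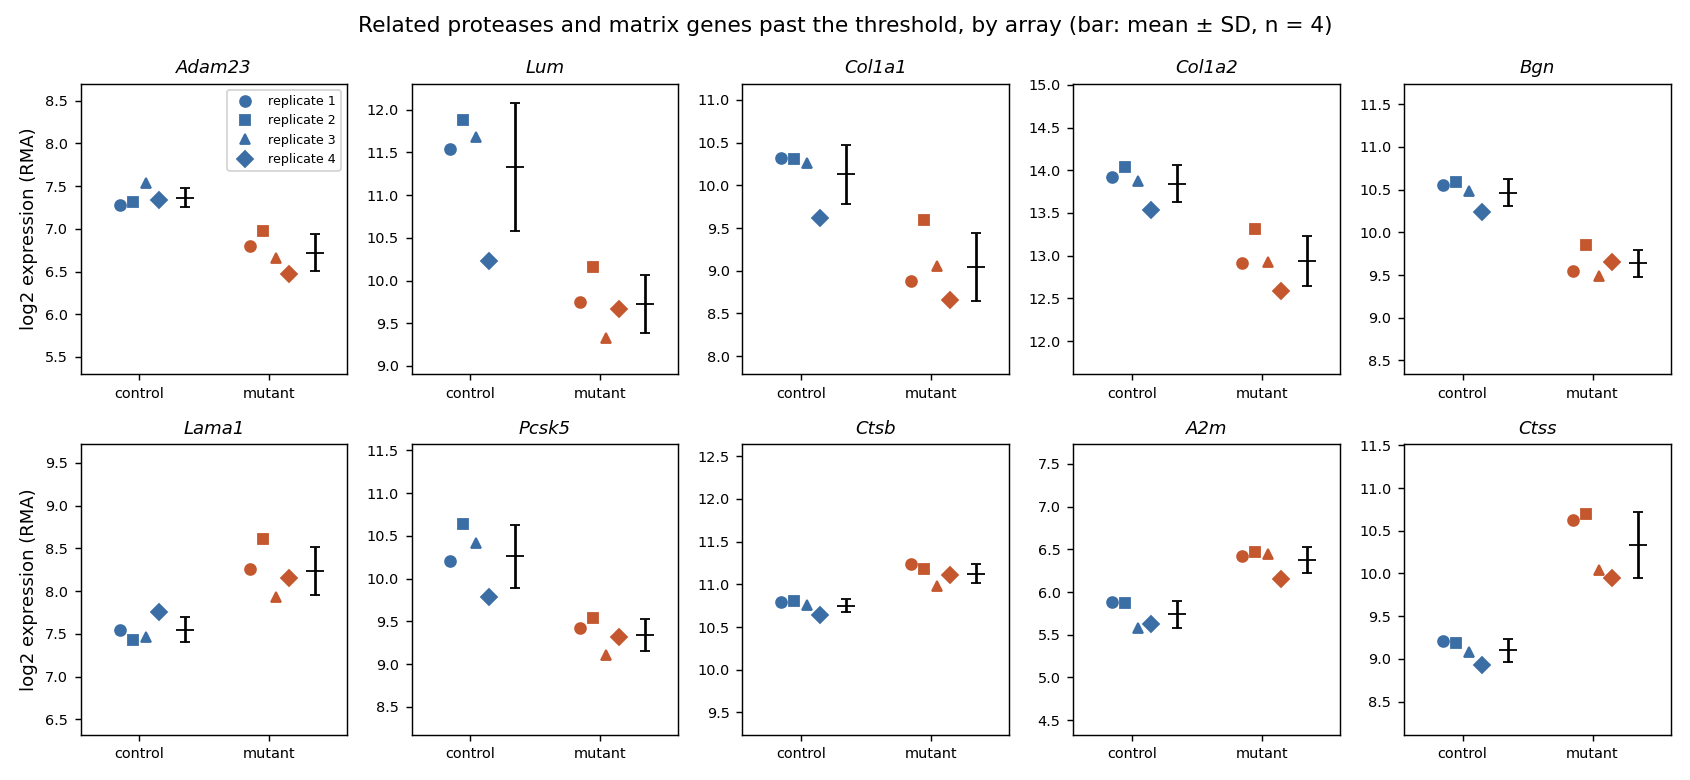
Log2 expression (vertical axis, each panel spanning an equal range) by array of the 10 genes past the threshold in the lists of related proteases, matrix substrates and ADAM genes. Symbols stand for replicates 1 to 4 and the bar is the mean ± SD of 4 arrays; the groups do not overlap in any panel.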

How the data were processed

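RNA of 8 mandibular arches (4 control, 4 mutant) was read on Affymetrix arrays. The authors deposited log2 values per probe set made with RMA, per the submitters' processing notes, which corrects background, equalizes the arrays and summarizes probes, so that changes of dim probe sets are compressed. The medians of the arrays still differed, from 6.28 to 6.42, and quantile normalization was an alternative. The version and build are not given in the sources used here. Of 45101 probe sets, 34958 had 1 symbol, 932 several and 9211 none. The brightest per gene gave 18194 genes, and all 37 members matched the RefSeq table (GRCm38.p6) by Entrez identifier. Promoters are from RefSeq, in a set that held 23 of the 37 members.

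Groups were compared with limma 3.58.1 (R 4.3.3), without covariates and with Benjamini-Hochberg adjustment over all genes, and a gene rose or fell at an adjusted p under 0.05. The code was tested on simulated data. The members and lists were chosen with earlier results of these data known. Values by array are given for genes past the threshold, the Timp genes and the 12 further members with the smallest p. Same-numbered arrays were not taken as pairs, since the labels name no pairing. Their deviations from the group means correlated at 0.03, 0.00, -0.12 and 0.41. Arrays of unlike number correlated at -0.33 to 0.28, so control 4 and mutant 4 had the highest value. Alternatives covered the block, probe set choice, filters, normalization, variance model, array weights, thresholds and single arrays, and 1 was added after seeing the data (without control 4 and mutant 3).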

Additional observations from a re-analysis of the deposited data

Results flagged for a closer look

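In 7 of 94 groups of 4 arrays tested, over the members and the related genes named, 1 array lay far from the other 3 by Dixon's 95% critical value, where chance gives about 1 in 20. Timp1 read 8.20 in mutant 3 against 8.87 to 8.98 in the other mutants, and Mmp8 read 5.54 there against 4.61 to 4.71. Mutant 3 is the array with the narrowest spread of values. Col1a1 read 9.61 in control 4 against 10.27 to 10.32 in the other controls, and Adamts19 read 4.25 in control 4 against 3.91 to 3.95. Adamts16 read 7.98 in control 2 against 7.60 to 7.67. Mmp12 read 3.40 in mutant 2 against 3.56 to 3.60, and A2m read 6.15 in mutant 4 against 6.42 to 6.47.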

How the results depend on the processing

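The count of members past the threshold was 1 (0 higher, 1 lower) with all arrays as deposited. It was 0 with the replicate number as a replicate block (0 lower, Adamts20 adjusted p = 0.0556; 1.61% of all genes called), 0 at an adjusted p under 0.01, 0 when every probe set was fitted on its own, 2 at an adjusted p under 0.1, 2 with a trend and robust prior (1 higher; 3.18%), 3 with quantile normalization (1 higher, 2 lower; 3.41%), 6 with array weights (2 higher, 4 lower; 7.45%) and 3 without control 4 and mutant 3 together (3 lower; 6.19%), against 2.14% of all genes with all arrays. Leaving out 1 array (0.572% to 3.40% of all genes called) gave 0 to 2 members, with 0 to 1 higher and 0 to 2 lower, 1 to 9 matrix substrates, 1 to 5 related proteases and 0 to 1 ADAM or ADAMTS-like genes. With a gene's probe sets averaged, 2 related proteases passed. Timp3 turned to 0.0365 with quantile normalization and lay between -0.12 and 0.11 over the rest (above 0 without control 1 or mutant 4), and Timp1, between -0.27 and -0.01 with 1 array left out, turned to 0.0035 without control 4 and mutant 3. The other 15 of 17 members kept their direction in every alternative that measured them. These 17 are the members given with values by array. Apart from the Timp genes they were picked for a small p, so that a kept direction was likely beforehand. The direction of the remaining members was not followed over the alternatives. The cause of these moves was not tested, and 4 arrays per group limit every value.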
